A study of Homo sapiens with 8 samples.

Results

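The Nodal pathway genes described here are 10 genes chosen by name: the ligands NODAL and GDF3, the coreceptor TDGF1, the nuclear cofactor FOXH1, the secreted antagonists LEFTY1, LEFTY2 and CER1, and the targets and inhibitors GSC, SMAD7 and SKIL. All 10 were found by symbol, among 11644 genes in the day 2 table and 14070 genes in the day 0 table. RNA-seq was done on H1, a widely used line of human embryonic stem cells, in 4 groups: SETD7 KO at day 0 (1 library), WT at day 0 (1 library), SETD7 KO at day 2 (3 libraries) and WT at day 2 (3 libraries). The SETD7 enzyme methylates lysines of histone H3 and of other proteins. Every group carries the label of a hematopoietic (blood-forming) differentiation, and the day 0 cells are its starting point. The labels do not say whether the knockout is 1 clone or whether each replicate was its own culture; the p-values below rest on the spread between libraries, which may be technical.

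Nodal is a secreted ligand of the TGF-beta family. With a coreceptor of the Cripto type, encoded by TDGF1, it binds activin receptors, and the receptors phosphorylate SMAD2 and SMAD3, which enter the nucleus with SMAD4 and bind DNA beside cofactors such as FOXH1. The pathway induces its own ligand and its own antagonists, the Lefty proteins, and helps to keep human embryonic stem cells pluripotent and to form mesendoderm when they differentiate. Cerberus, encoded by CER1, binds and blocks Nodal outside the cell, while SMAD7 and SKIL (SnoN) restrain SMAD signalling inside it.

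LEFTY1 and LEFTY2 are neighbouring copies on chromosome 1, and their reads can be shared. In GENCODE release 29 (GRCh38) LEFTY1 lies at chr1:225886282-225911382 and LEFTY2 at chr1:225936598-225941489, both on the minus strand. Their longest coding sequences have 1098 bases each and are identical at 97.2% of positions, with 31 mismatches. A stretch of 120 coding bases holds a median of 2 differences and at most 11. Of the 50-base windows of the annotated transcripts, 26.8% for LEFTY1 and 20.7% for LEFTY2 occur in the other gene as well, so part of the reads cannot be assigned to 1 copy by sequence alone. In addition, 882 of the 1891 exon bases of LEFTY1 and 175 of the 2392 exon bases of LEFTY2 also belong to another annotated gene on the same strand.

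Promoter sequences of 6 of the 10 genes were matched in RefSeq (GRCh38.p14), and none for LEFTY1, LEFTY2, TDGF1 and FOXH1. The 250 bases before the start are shown for NODAL, CER1 and GDF3, a ligand that was called lower in KO at day 2, and an antagonist and another ligand that were called higher. Capitals mark the SMAD box CAGAC (or its reverse complement GTCTG). NODAL is at chr10:70441682-70441931, CER1 at chr9:14722734-14722983 and GDF3 at chr12:7695776-7696025, each on the minus strand and printed 5′ to 3′.
NODAL: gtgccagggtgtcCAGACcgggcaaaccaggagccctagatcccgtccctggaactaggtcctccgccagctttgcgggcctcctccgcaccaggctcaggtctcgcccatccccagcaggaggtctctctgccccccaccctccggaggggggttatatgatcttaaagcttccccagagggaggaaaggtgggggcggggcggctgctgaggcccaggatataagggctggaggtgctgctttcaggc
CER1: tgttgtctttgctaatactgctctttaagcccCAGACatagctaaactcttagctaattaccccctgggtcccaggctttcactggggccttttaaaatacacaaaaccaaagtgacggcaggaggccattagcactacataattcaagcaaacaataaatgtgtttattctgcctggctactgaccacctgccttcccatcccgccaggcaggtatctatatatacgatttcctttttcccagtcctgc
GDF3: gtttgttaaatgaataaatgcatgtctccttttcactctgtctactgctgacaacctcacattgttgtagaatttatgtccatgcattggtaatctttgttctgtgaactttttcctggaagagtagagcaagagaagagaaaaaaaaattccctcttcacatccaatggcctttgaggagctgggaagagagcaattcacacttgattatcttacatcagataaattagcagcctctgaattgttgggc
The box occurred 237 bases before the start of NODAL and 218 bases before that of CER1, and not in the GDF3 window. Over the 8 windows of the 6 genes, 3 of which belong to SMAD7, the box was present in 6, against 38% of 35116 promoter windows of the same length. By gene, 5 of the 6 had it in at least 1 window. The core FOXH1 motif AATCCACA (both strands) was in none of the 8 windows and in 0.709% of all windows. A match of these letters is a description and not a bound site.

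The day 2 libraries held 29647943 to 39553614 counts in SETD7 KO and 27880068 to 32230627 counts in WT, and the depth of the day 0 libraries is unknown. SETD7 itself was at 1.48 FPKM (fragments scaled for transcript length and sequencing depth) in the KO and 3.53 FPKM in the WT library at day 0. At day 2 it was 32.9, 28.9 and 33.7 CPM (counts scaled to library size, with TMM factors) in KO, against 54.8, 56.2 and 55.6 CPM in WT. Its mRNA was therefore lower in every library labelled KO, with transcript remaining. Values were compared between genotypes within a day and never across days, because the units differ.

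At day 0, Nodal pathway genes stood higher in the KO library. In all, 7 ligand, antagonist and inhibitor genes, LEFTY1, GDF3, NODAL, SMAD7, LEFTY2, CER1 and SKIL, were past 1.5-fold on the scale of FPKM + 1, all of them upwards, and none of the 10 was past 1.5-fold downwards. Of all 13284 genes with at least 1 FPKM in either library, 4.81% were past 1.5-fold higher and 8.77% past 1.5-fold lower. With 5 FPKM added in place of 1, LEFTY2 (0.40) and CER1 (0.38) were within 1.5-fold, and the log2 ratios of LEFTY1, GDF3, SMAD7 and NODAL were 1.74, 1.06, 0.82 and 0.74. There is 1 library per genotype, so these differences have no replicate check and no test. In such bulk samples, fewer cells that express a gene and less RNA per cell cannot be told apart.

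The ligand NODAL was at 5.25 FPKM in the KO library and 1.13 FPKM in the WT library, a log2 ratio of 1.56. GDF3, a ligand of the same family that is known from pluripotent cells, was at 9.76 FPKM in KO and 2.08 FPKM in WT (log2 ratio 1.81). These ratios ranked 22 and 13 from the top among the 13284 genes.

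LEFTY1, the Nodal antagonist that is also a direct target of the pathway, was at 11.8 FPKM in the KO library and 0.031 FPKM in the WT library. Its log2 ratio of 3.64 was the highest of all 13284 genes. It met the minimum of 1 FPKM through the KO library alone, where it is high, so its place among the kept genes is not independent of the difference. LEFTY2 was at 3.46 FPKM in KO and 1.41 FPKM in WT (log2 ratio 0.89), and the sum of both copies was 15.3 FPKM in KO and 1.44 FPKM in WT. As FPKM divides by length and the copies differ in length, that sum still depends in part on how shared reads were divided. CER1 was at 5.32 FPKM in KO and 2.95 FPKM in WT (log2 ratio 0.68).

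Among the intracellular inhibitors, SMAD7, which blocks receptor signalling, was at 7.83 FPKM in KO and 2.28 FPKM in WT (log2 ratio 1.43). SKIL, a corepressor of SMAD proteins, was at 36.1 FPKM in KO and 22.2 FPKM in WT (log2 ratio 0.67). The coreceptor TDGF1 was by far the most abundant member, at 261 FPKM in KO and 248.6 FPKM in WT (log2 ratio 0.07). FOXH1 was at 23.8 FPKM in KO and 26.7 FPKM in WT (log2 ratio -0.16). The homeobox gene GSC, an organizer gene that Nodal induces, was under 1 FPKM in both libraries, at 0.044 FPKM in KO and 0.080 FPKM in WT, and its ratio was not read. The coreceptor and the cofactor of the set were thus within 1.5-fold, while its ligands, antagonists and inhibitors were past it.

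**Figure D1:**
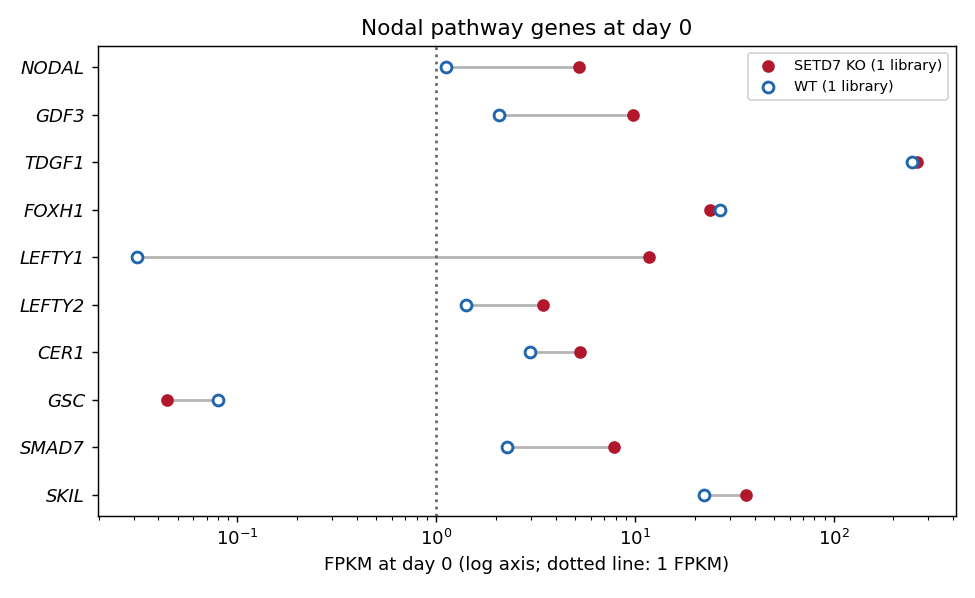
Level of each of the 10 genes at day 0 in FPKM (log axis), with a filled point for the single SETD7 KO library and an open point for the single WT library. LEFTY1 shows the widest gap, at 11.8 FPKM in KO and 0.031 FPKM in WT, and TDGF1 and FOXH1 lie almost on top of each other.

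At day 2, the set was divided. GDF3, GSC, CER1 and TDGF1 rose in SETD7 KO, NODAL, LEFTY1, LEFTY2, SMAD7 and SKIL fell, and FOXH1 did not pass the test. In all, 4 of the 10 genes were called higher and 5 lower by edgeR's quasi-likelihood test (Benjamini-Hochberg adjusted p under 0.05 over 11475 genes). Of all genes tested, 12.3% were called higher and 11% lower. The 3 KO libraries did not overlap the 3 WT libraries in 9 of the 10 genes, against 37.7% of all genes. Of all genes, 23.3% were called in either direction, and 9 of these 10 were. The median size of the log2 fold change was 0.23 over the 10 genes, 0.096 over all genes tested and 0.22 over all genes called.

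The 2 ligands went opposite ways at day 2. NODAL was 6.89, 7.10 and 5.58 CPM in KO, against 8.21, 9.16 and 9.55 CPM in WT, with every KO library below every WT library. It fell to 6.52 ± 0.825 CPM in KO, against 8.98 ± 0.69 CPM in WT (SD, n = 3 each), or -0.46 on the log2 scale (SE 0.12, edgeR adjusted p 0.00548). GDF3 was 15.1, 18.1 and 15.1 CPM in KO, against 11.6, 11.6 and 7.27 CPM in WT. All KO libraries were higher, and WT replicate 3 lay below the other two. The log2 fold change was 0.67 (SE 0.15, edgeR adjusted p 0.00702). GDF3 and NODAL both lay low in this set, at 166 to 631 counts per library, and 698 of the 1693 exon bases of NODAL also belong to a gene on the opposite strand, which the counting may not have kept apart.

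The coreceptor and the cofactor changed little. TDGF1 was 704.3, 747.7 and 752 CPM in KO, against 683.4, 662.2 and 671.6 CPM in WT. Each KO library exceeded each WT library, and the log2 fold change was 0.13 (SE 0.031, edgeR adjusted p 0.00251). TDGF1 shares 34% of its 50-base windows with the annotated copy TDGF1P3, and a short stretch of exon with LRRC2, which rose by 0.27 on the log2 scale (edgeR adjusted p 3e-06). FOXH1 was 54.7, 53.2 and 56.8 CPM in KO, against 52.4, 53.9 and 57.9 CPM in WT. The libraries overlapped, and the log2 fold change of 0.0038 had a standard error of 0.052 (edgeR adjusted p 0.969). FOXH1 overlaps KIFC2 on the opposite strand over 791 exon bases, and KIFC2 rose by 0.30 on the log2 scale (edgeR adjusted p 0.0204).

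The secreted antagonists did not move as a group. LEFTY1 was 8.99, 8.82 and 9.11 CPM in KO, against 11.2, 11.9 and 11.8 CPM in WT, a log2 change of -0.38 (SE 0.099, edgeR adjusted p 0.00474). LEFTY2 was 14.1, 14.0 and 11.9 CPM in KO, against 16.2, 18.6 and 20.4 CPM in WT, a log2 change of -0.46 (SE 0.090, edgeR adjusted p 0.000208). No KO library of either copy reached the lowest WT library. With the counts of both copies added up as 1 gene, a choice made after the data were seen, the log2 fold change was -0.43 (SE 0.070, edgeR adjusted p 1.73e-05). CER1 was 8316, 8481 and 8498 CPM in KO, against 7433, 7518 and 7497 CPM in WT. It rose, a log2 change of 0.17 (SE 0.027, edgeR adjusted p 8.92e-06), and overlaps no other annotated exon.

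Whether the fall of the Lefty copies differed was asked inside each library, where depth cancels. The ratio of LEFTY2 to LEFTY1 counts was 1.56, 1.59 and 1.30 in KO, against 1.45, 1.56 and 1.72 in WT. The mean log2 ratio was 0.56 ± 0.16 in KO and 0.65 ± 0.12 in WT (SD, n = 3 each), a difference of -0.09 (exact permutation test, 2-sided, p = 0.6, where the smallest p that 3 against 3 allows is 0.1). The KO and WT libraries overlapped, and since this test could not have passed a threshold of 0.05, nothing is read from its p about whether the copies differ.

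The targets and intracellular inhibitors were split as well. GSC was 117, 106 and 105 CPM in KO, against 91.4, 91.4 and 93.5 CPM in WT, all KO libraries higher, a log2 change of 0.25 (SE 0.043, edgeR adjusted p 3.01e-05). SMAD7 was 97.1, 92.6 and 91.3 CPM in KO, against 111, 105 and 109 CPM in WT, all KO libraries lower, a log2 change of -0.21 (SE 0.041, edgeR adjusted p 0.000195). SKIL was 128.7, 137 and 144 CPM in KO, against 167.9, 147.8 and 150.02 CPM in WT. It fell by 0.19 on the log2 scale (SE 0.046, edgeR adjusted p 0.00455), and KO replicate 3 lay close to the lower pair of WT libraries. None of GSC, SMAD7 and SKIL overlaps an exon of another annotated gene.

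**Figure D2:**
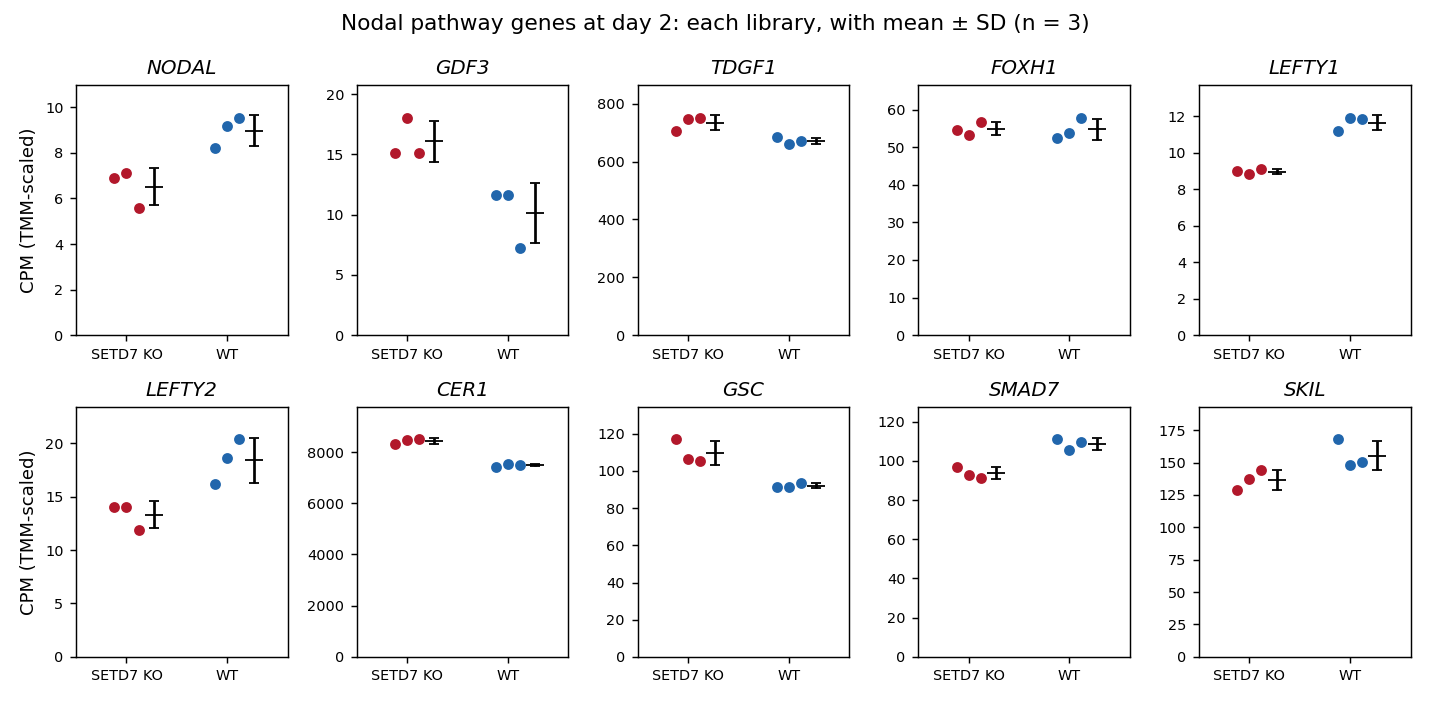
Level of each of the 10 genes at day 2 in TMM-scaled CPM (axes start at 0), with a point for each of 3 SETD7 KO and 3 WT libraries and the mean ± SD beside them. KO and WT libraries are separate in every panel except FOXH1, and the log2 fold change is largest in size for GDF3 (0.67).

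The genes differ in level far more than the genotypes do. Per kilobase of annotated exon at day 2, CER1 reached 6940 ± 82.7 CPM in KO and 6158 ± 36.6 CPM in WT (SD, n = 3 each). TDGF1 followed at 244 ± 8.79 CPM per kilobase in KO and 223.7 ± 3.54 in WT, and GSC at 86.8 ± 5.06 in KO and 72.9 ± 0.955 in WT. FOXH1, SMAD7 and SKIL lay close together, at 17.5 to 21.9 CPM per kilobase in KO and 19.9 to 21.9 in WT, and in WT the means of FOXH1 (21.9 ± 1.13) and SMAD7 (21.6 ± 0.582) differed by less than either SD. GDF3, LEFTY2, LEFTY1 and NODAL came last in both genotypes, between 3.85 and 13.0 CPM per kilobase in KO and between 5.30 and 8.20 in WT, where GDF3 (8.20 ± 2.02) and LEFTY2 (7.69 ± 0.873) differed by less than either SD. The order of the 10 genes was the same in both genotypes at day 2. At day 0, per length by the FPKM unit, it was not: LEFTY1 was the fourth highest of the 10 in KO and the lowest in WT.

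The sign of the difference changed between the days for 5 genes that passed the test at day 2. LEFTY1 had a log2 ratio of 3.64 at day 0 and a log2 fold change of -0.38 at day 2. NODAL had 1.56 at day 0 and -0.46 at day 2, and SMAD7 had 1.43 at day 0 and -0.21 at day 2. LEFTY2 had 0.89 at day 0 and -0.46 at day 2, and SKIL 0.67 at day 0 and -0.19 at day 2. All 5 were higher in the 1 KO library than in the 1 WT library at day 0, and lower in the 3 KO libraries at day 2.

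GDF3 and CER1 kept a higher value in KO on both days. Their log2 values were 1.81 and 0.68 at day 0 and 0.67 and 0.17 at day 2. TDGF1 was within 1.5-fold at day 0 (0.07) and was called higher at day 2 (0.13). FOXH1 had opposite signs too, -0.16 at day 0 and 0.0038 at day 2, but did not pass at day 2, and GSC was under 1 FPKM at day 0. Of the 502 genes past 1.5-fold higher in KO at day 0 and tested at day 2, 17.1% were called lower and 11.6% higher at day 2; of the 7 members among them, 5 were called lower and 2 higher. The difference between the days was not tested, since day 0 has 1 library per genotype in another unit.

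**Figure D3:**
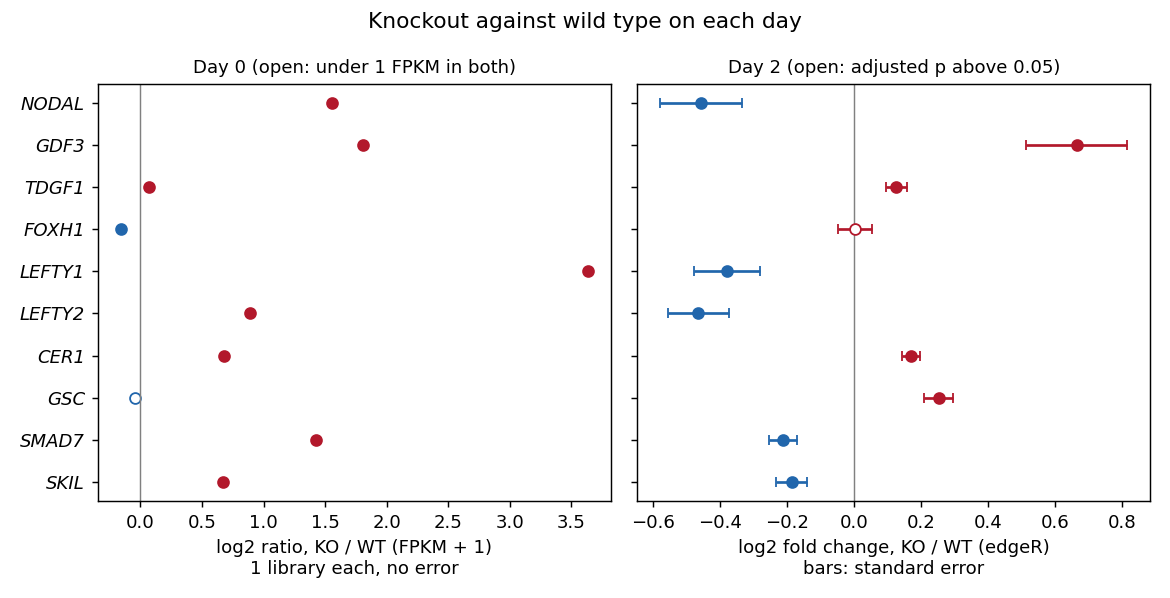
Log2 ratio of SETD7 KO to WT at day 0 (left; FPKM + 1, 1 library each) and log2 fold change at day 2 (right; edgeR, bars are standard errors, 3 libraries each), on separate axes. LEFTY1, NODAL, SMAD7, LEFTY2 and SKIL lie right of 0 at day 0 and left of 0 at day 2.

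Beyond these 10 genes, 56 other genes of 6 pathway lists were tested at day 2, of which 8 were called higher, 9 lower and 39 neither. Their median log2 fold change was -0.02, beside -0.0026 over all genes tested. Over all genes tested, 12.3% were called higher and 11% lower, and the list counts here and below stand beside those shares. The receptor gene ACVR2B rose (0.13, edgeR adjusted p 0.00403), and the signal transducer SMAD3 rose to 46.7 ± 0.985 CPM in KO, against 36.9 ± 2.32 CPM in WT (0.34, edgeR adjusted p 2.66e-05). SMAD2 (-0.02) and SMAD4 (-0.0080) did not pass. The SMAD partners TRIM33 (-0.16), WWTR1 (-0.17) and YAP1 (-0.12) fell. With its members included, the list of ligands and processing genes had 1 higher and 1 lower of 6 tested, receptors and coreceptors 2 and 0 of 7, and signal transducers and cofactors 1 and 3 of 12.

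Among other antagonists, FST, the activin-binding protein follistatin, fell to 286 ± 11.6 CPM in KO, against 336 ± 4.56 CPM in WT (-0.23, edgeR adjusted p 1.64e-06). FSTL1 (0.20) and the pseudoreceptor gene BAMBI (0.14) rose, which gave 3 higher and 3 lower of 11 extracellular antagonists. Inside the cell, the inhibitory SMAD6 (0.11) and the ubiquitin ligase gene NEDD4L (0.37) rose and the corepressor TGIF2 fell (-0.20), and the list had 2 higher and 3 lower of 15.

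The target genes were mixed, with 3 higher and 4 lower of 15. The streak and mesendoderm genes LHX1 (0.38) and MIXL1 (0.10) rose beside GSC. The endoderm regulator SOX17 fell to 102 ± 3.30 CPM in KO, against 151 ± 3.30 CPM in WT (-0.56, edgeR adjusted p 2.52e-13), as did NANOG (-0.57), TBXT, listed as T (-0.26), and FGF8 (-0.25). EOMES (-0.02), GATA6 (-0.04), CYP26A1 (-0.03), TCF3 (0.08) and EP300 (-0.07) were the most abundant genes of the lists that did not pass.

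**Figure D4:**
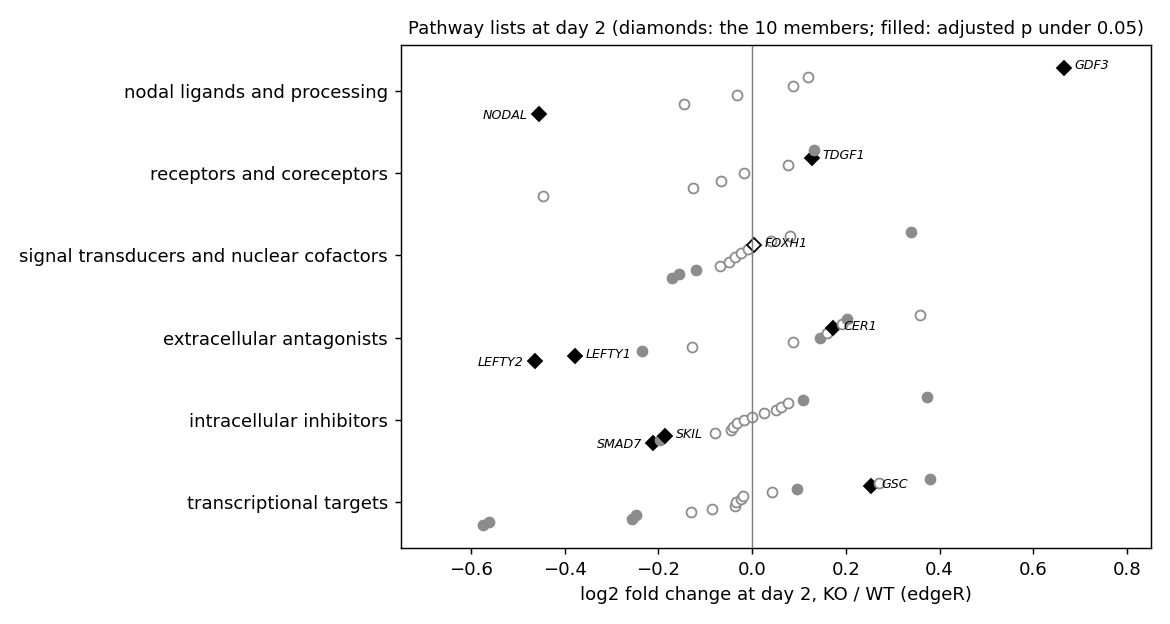
Log2 fold change at day 2 (SETD7 KO over WT, edgeR) of each tested gene in the 6 pathway lists, with diamonds for the 10 members and filled symbols for an adjusted p under 0.05. Each list except receptors and coreceptors holds called genes on both sides of 0, with GDF3 (0.67) and NANOG (-0.57) at the ends.

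At day 0, 47 other genes of the lists had at least 1 FPKM in either library. Of these, 5 were past 1.5-fold higher and 7 past 1.5-fold lower in KO. Over all 13284 genes, 4.81% were past 1.5-fold higher and 8.77% past 1.5-fold lower. The median log2 ratio was -0.04 over the 47 genes and -0.03 over all 13284. The list genes that were higher were the Nicalin gene NCLN (1.41), FSTL3 (0.84), BAMBI (0.85), the SMAD phosphatase gene PPM1A (0.79) and NANOG (0.67). Among those lower were INHBE, an inhibin subunit gene (2.33 FPKM in KO and 23.0 FPKM in WT), OTX2 (-1.07), CYP26A1 (-1.08), TGFBR1 (-1.04), FST (-0.86) and SMAD2 (-0.76). NANOG was higher in KO at day 0 and called lower at day 2, as the 5 members were. The other list genes higher at day 0 were not: BAMBI was called higher at day 2 (0.14), and NCLN, FSTL3 and PPM1A were not called.

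Markers of cell states that such cultures can hold moved beside these genes at day 2, and their part in the results was not tested. The shares called over all genes tested were 12.3% higher and 11% lower. The pluripotency list had 2 higher and 1 lower of 12 tested, with a summed level of 3625 to 3675 CPM in KO and 3478 to 3529 CPM in WT. Its higher genes are the member TDGF1, at a mean of 735 CPM in KO and 672 CPM in WT, and DNMT3B, at 697 and 621 CPM. Its lower gene is NANOG. The primitive streak list had 3 higher and 3 lower of 10 (3012 to 3078 CPM in KO and 2953 to 3001 CPM in WT). The member GSC is among the higher genes of that list. The definitive endoderm list had 2 and 2 of 7 (9232 to 9397 CPM in KO and 8400.2 to 8505 CPM in WT), a sum made up mostly of CER1 itself. The lateral plate list had 1 higher and 3 lower of 8 (1242 to 1249 CPM in KO and 1278 to 1333 CPM in WT). The amnion and trophoblast list had 0 and 3 of 5 (66.8 to 68.9 CPM in KO and 78.8 to 79.5 CPM in WT). ISL1, at a mean of 2.21 CPM in KO and 4.95 CPM in WT, is a lower gene of both lists. The neural ectoderm list had 2 and 0 of 3 (1009 to 1067 CPM in KO and 966 to 986 CPM in WT). Of its 8 genes, only ZIC2, OTX2 and NES had day 2 counts. The fibroblast list had 3 and 2 of 5 (566 to 606 CPM in KO and 441 to 467 CPM in WT). Most of that sum was COL1A2 (mean 360 CPM in KO and 246 CPM in WT), and LUM and FBN1 were the lower genes.

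At day 0 the summed pluripotency list, with TDGF1 included, was 1945 FPKM in KO and 1516 FPKM in WT. L1TD1 (1.07), DNMT3B (0.73) and NANOG (0.67) were past 1.5-fold higher and none of 13 past 1.5-fold lower. Over all 13284 genes, 4.81% were past 1.5-fold higher and 8.77% past 1.5-fold lower, and the counts of this paragraph stand beside those shares. POU5F1, the defining factor of pluripotent cells, was at 113 FPKM in KO and 149 FPKM in WT at day 0. The neural genes OTX2 (-1.07) and ZIC2 (-0.79), the amnion marker KRT7 (7.42 FPKM in KO and 19.6 FPKM in WT, -1.29), the mesoderm genes TBX6 (-0.85) and BMP4 (-0.59) and the collagen gene COL1A1 (-0.67) were past 1.5-fold lower, and the part of these markers in the day 0 differences was not tested. Among genes with at least 1 FPKM in either library, these were 2 of 3 in the neural list and 1 of 2 in the amnion list. They were also 1 of 2 in the primitive streak list, 1 of 1 in the lateral plate list and 1 of 5 in the fibroblast list. The remaining genes of these lists at that level were within 1.5-fold. Of the endoderm markers SOX17, FOXA2, FOXA1, GATA6, HHEX, PRDM1 and LHX1 were under 1 FPKM in both libraries.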

How the data were processed

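Gene expression was measured by RNA-seq. The deposited day 2 file holds counts per gene as whole numbers, and the deposited day 0 file holds FPKM, per the file headers. The submitters' processing notes name HISAT2, StringTie and GRCh38 (hg38), with no versions. The counting tool, its use of strand and the annotation were not given in the sources used here, so genes that overlap or copy another carry uncertain values. An unheaded column of 434 gene names in the day 0 file was not used. Genotype, day and replicate number came from the sample titles.

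Day 2 counts were scaled by TMM, filtered with filterByExpr (11475 of 11644 genes kept) and fitted with edgeR 4.0.16 in R 4.3.3 (robust quasi-likelihood F test, 2-sided, with genotype alone in the model, Benjamini-Hochberg adjustment over all genes, threshold 0.05). SE is the size of the log2 fold change divided by the square root of F. Of the steps described here, only the day 2 fit was also run on simulated counts. At day 0, 1 was added to each FPKM and the log2 ratio of KO to WT computed, without a test, where either library reached 1 FPKM. Exon lengths, overlaps and shared 50-base windows came from GENCODE release 29, and promoters from RefSeq. No library repeated another: the chi-square of a pair of day 2 libraries over genes, divided by its degrees of freedom, was 3.05 to 8.98 for equal genotypes. Intervals for day 0 values cannot be given, since the depth is unknown.

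Alternatives were DESeq2 size factors, upper-quartile scaling, no filter on low counts, a minimum mean of 1 CPM, DESeq2 1.42.0 (Wald test), limma-voom (limma 3.58.1), the replicate number as a block and leaving out each library; for day 0, other pseudocounts, filters and median centring. The genes, the pathway and marker lists (pluripotency, primitive streak, definitive endoderm, lateral plate, neural ectoderm, amnion and trophoblast, fibroblast) and the tests were chosen with earlier results of these data known. Named were SETD7, all 10 members, other pathway list genes past the threshold and the 5 most abundant that did not pass, at day 0 the list genes past 1.5-fold, and some genes that overlap or copy a member. Marker lists at day 2 are given by their counts and summed levels, and a few of their genes were named after their values were seen. POU5F1 and the low endoderm markers at day 0 were named after their values were seen. One list gene that this rule would name at day 0 is counted but not reported here.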

Additional observations from a re-analysis of the deposited data

Results flagged for a closer look

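In 5 genes the 3 KO libraries of day 2 all lay on the side of the WT libraries opposite to the difference at day 0. The day 2 log2 fold change was -0.38 for LEFTY1, -0.46 for NODAL, -0.46 for LEFTY2, -0.21 for SMAD7 and -0.19 for SKIL, and the day 0 log2 ratios of the same genes were 3.64, 1.56, 0.89, 1.43 and 0.67. The difference between the days was not tested, and day 0 rests on 1 library per genotype.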

How the results depend on the processing

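Over the settings tried at day 2, the 9 called genes kept their direction and an adjusted p under 0.05: 4 were higher and 5 lower in each of 13 alternatives. The highest adjusted p was 0.0463 for NODAL, 0.0454 for SKIL and 0.0402 for TDGF1, each with 1 library left out. FOXH1, which did not pass in any setting, ranged from -0.026 to 0.046 with a library left out, changing sign without KO replicate 3 or WT replicate 1 or 2. The difference in the LEFTY2 to LEFTY1 log2 ratio ranged from -0.15 to 0.0032 with a library left out, and was positive only without KO replicate 3. The genes called over the whole table ranged from 1098 to 1605 higher and from 907 to 1270 lower. At day 0, the count of members past 1.5-fold higher was 5 with a pseudocount of 5 FPKM (LEFTY2 and CER1 dropped out), 6 with a minimum of 5 FPKM and 7 otherwise; the LEFTY1 log2 ratio was 1.74 with a pseudocount of 5 FPKM and 6.51 with 0.1 FPKM, and no member past 1.5-fold changed sign.

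Libraries with the same replicate number did not deviate together (r = -0.09, -0.07 and -0.02). With 3 libraries per genotype this cannot show whether equal numbers were handled together, and the main model did not pair them. With the replicate number as a block, 1205 genes were called higher and 1005 lower, the same 4 and 5 members were called, and the LEFTY2 to LEFTY1 difference was -0.09.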
